A study of Neurospora crassa with 2 samples.

Results

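Transcripts of 8 genes of mitogen-activated protein (MAP) kinase signalling and hyphal fusion were examined in Neurospora crassa, a filamentous ascomycete fungus. The genes are mak-1, mak-2, os-2, mek-2, nrc-1, ham-5, so and pp-1, and they were taken by gene identifier from a table of 9454 genes. 7 of the 8 stood in the table under the identifier of the rule. The remaining one, mak-1, was listed there as NCU09842, the locus tag for which RefSeq gives NCU11376 as an older tag.

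The study compared a wild-type strain with a upf1 knockout strain. UPF1 is the helicase of nonsense-mediated mRNA decay, which removes transcripts whose stop codon is premature or unusually placed. After 2 weeks on minimal slants both strains were cultured for 2 days with 2% glucose under constant light, with no further treatment. RNA of 3 flasks was combined for each strain, and poly(A) RNA of the hyphae was sequenced as 1 library per strain. The sources used here do not give how the knockout was made or how much of upf1 it removes.

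In a MAP kinase cascade a kinase kinase kinase (MAPKKK) phosphorylates a kinase kinase (MAPKK), which phosphorylates the MAP kinase (MAPK), which in turn acts on transcription factors and other proteins. Neurospora has 3 such cascades, named here after their best-known roles: cell wall integrity with mak-1, pheromone response and hyphal fusion with mak-2, and osmotic stress with os-2. In hyphal fusion, or anastomosis, cells grow towards each other and join into a network. During this approach MAK-2 and the SO protein gather at the opposing tips in turns.

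None of the 8 genes reached a 2-fold difference between the libraries at the deposited scaling. All 8 had at least 5 RPKM (reads normalised to gene model length and library total) in at least 1 library, the level from which genes were counted. Among the 7367 genes of the table at that level, 16.5% lay at or above 2-fold on the knockout side and 5.52% on the wild-type side, on the scale of log2(RPKM + 1); at 4-fold the shares were 3.87% and 1.34%, and again none of the 8. The median log2 ratio of the 8 genes was -0.11, beside 0.15 for all 7367 genes, whose quartiles were -0.28 and 0.69. 7 of the 8 lay below a ratio of 1, as did 2993 of the 7367 genes, and so lay above it.

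These counts describe 2 libraries. No difference has a replicate check, and no p-value was calculated. Intervals in parentheses are 95% intervals of counting error alone, and they leave out any spread between cultures. The table holds 56306422 reads for the knockout and 28189643 for the wild type. In the knockout library upf1 itself (NCU04242) had 2.78 RPKM, against 22.6 in the wild type. Conidial markers were detected in these hyphae. Of 6 such markers 4 had a knockout value 2-fold or more above the wild type and 2 the reverse, none was at 0, and their summed level was 2529 RPKM against 16070, most of it from the hydrophobin gene eas with 1619 and 15983 RPKM. Of 4 markers of sexual structures 3 were in the table, 2 higher and 1 lower, with summed levels of 81.9 and 23.98 RPKM. The part of these markers in the ratios below was not tested. In such bulk RNA, fewer cells of a type cannot be told apart from less RNA per cell.

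**Figure D1:**
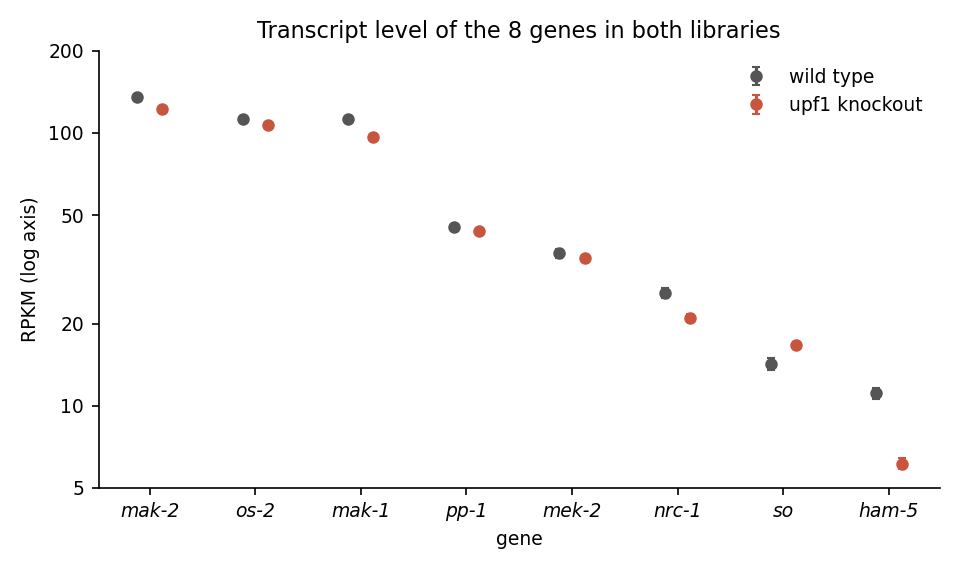
RPKM of the 8 genes on a log axis in the wild-type (grey) and upf1 knockout (red) libraries, ordered by wild-type level, with 1 point per library and bars for the 95% counting interval. The levels run from 135 RPKM for mak-2 to 11.1 for ham-5 in the wild type, and the points of ham-5 lie farthest apart.

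The 3 MAP kinase genes had the highest levels of the 8. mak-2 (NCU02393, supercontig 7, 1597945 to 1600564, plus strand, in coordinates of the deposited table), the kinase related to yeast Fus3 and Kss1, had 11071 wild-type reads, or 135 RPKM, and 20267 knockout reads, or 123 RPKM. The knockout value was thus 1.10-fold lower (1.08 to 1.13). Its wild-type level exceeded that of 92.5% of all genes in the table.

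mak-1 (supercontig 5, 5921311 to 5923910, plus strand), which encodes the cell wall integrity kinase related to yeast Slt2, had 112 RPKM in the wild type from 7566 reads and 96.4 RPKM in the knockout from 13114 reads. The knockout value was 1.16-fold lower (1.13 to 1.20). os-2 (NCU07024, supercontig 4, 4948633 to 4951189, minus strand), the gene of the osmotic stress kinase related to yeast Hog1, had 113 RPKM in the wild type from 7082 reads and 107 RPKM in the knockout from 13546 reads, 1.06-fold lower (1.03 to 1.09). All 3 kinase genes were thus lower in the knockout library by at most 1.16-fold, and their log2 ratios of -0.14 (mak-2), -0.22 (mak-1) and -0.08 (os-2) lay inside the quartiles of all genes.

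Upstream of MAK-2, the MAPKK gene mek-2 (NCU04612, supercontig 5, 1501140 to 1503478, minus strand) had 36.1 RPKM from 3290 reads in the wild type and 34.8 RPKM from 6399 reads in the knockout. Its counting interval, from 0.924 to 1.01 as a ratio of knockout to wild type, included 1. By its coordinates mek-2 overlaps the convergent gene NCU04613 by 135 bp. As the sources used here do not say whether strand was used in counting, the reads of mek-2 are uncertain. NCU04613 had a ratio of 1.11 (1.02 to 1.20).

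nrc-1 (NCU06182, supercontig 3, 1805207 to 1808013, minus strand), the MAPKKK gene of the same cascade, had 2096 wild-type reads (25.9 RPKM) and 3433 knockout reads (21.0 RPKM), 1.23-fold lower in the knockout (1.17 to 1.30). Of the 3 kinases of this cascade, nrc-1 had the lowest ratio and mek-2 the one nearest to 1. The log2 ratio of nrc-1, -0.29, lay just outside the lower quartile of all genes.

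ham-5 (NCU01789, supercontig 2, 2433932 to 2439266, minus strand) stood farthest from 1 among the 8. It encodes the scaffold that holds NRC-1, MEK-2 and MAK-2 together and is needed for fusion. Its level was 11.1 RPKM in the wild type from 1692 reads and 6.14 RPKM in the knockout from 1887 reads, although the knockout library was 2.02-fold deeper. The ratio corresponds to 1.81-fold lower (1.69 to 1.93). On the log2(RPKM + 1) scale this is -0.76, lower than in all but 8.62% of the 7367 genes, and ham-5 was the only one of the 8 past 1.5-fold. At 1.5-fold 12.7% of all genes were lower and 28.8% higher, so 1 gene of 8 at this threshold is near the share of all genes.

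so (NCU02794, supercontig 1, 9110042 to 9114031, minus strand) was the only one of the 8 with a higher value in the knockout library. Its product, SOFT, is the WW-domain protein that alternates with MAK-2 at the tips of fusing cells. It had 14.2 RPKM in the wild type from 1647 reads and 16.7 RPKM in the knockout from 3890 reads, 1.17-fold higher (1.10 to 1.24). This lies close to the median of all genes. With trimmed-mean (TMM) scaling, which takes the median log2 ratio of all genes from 0.15 to -0.02, the log2 ratio of so went from 0.21 to 0.04.

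pp-1 (NCU00340, supercontig 3, 3507722 to 3510915, minus strand) encodes the transcription factor related to yeast Ste12 that acts downstream of MAK-2. It had 45.0 RPKM from 3921 reads in the wild type and 43.8 RPKM from 7701 reads in the knockout. The interval of the ratio, 0.936 to 1.01, included 1. The 2 genes whose interval included 1 were thus pp-1 and mek-2, and this holds for the deposited scaling only. Relative to the median gene, the log2 ratios of pp-1 and mek-2 were -0.19 and -0.20.

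**Figure D2:**
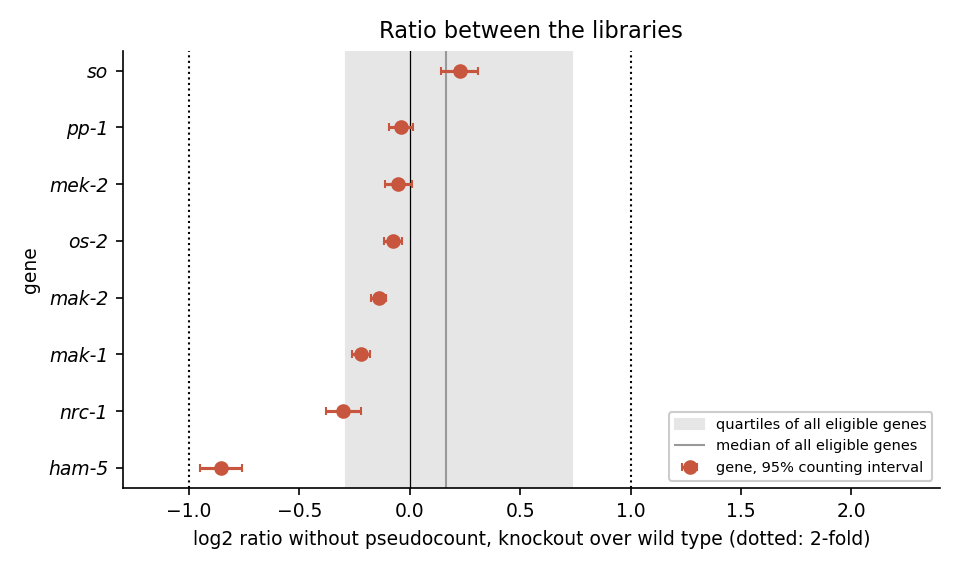
Log2 ratio of knockout over wild type for each of the 8 genes (points, reads over library totals, no pseudocount) with 95% counting intervals. The grey band spans the quartiles of the 7367 genes counted, -0.29 to 0.73 on this scale, and the grey line is their median of 0.16. Dotted lines mark 2-fold, and only ham-5 lies well below the band.

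The order of the levels was the same in both libraries: mak-2, os-2, mak-1, pp-1, mek-2, nrc-1, so and ham-5. In the wild type os-2 and mak-1 did not differ beyond counting error, with a ratio of 1.003 (0.971 to 1.04), whereas in the knockout os-2 was 1.11-fold above mak-1 (1.08 to 1.13). All other neighbours in the order differed beyond counting error in both libraries. The closest were mak-2 over os-2 in the knockout, 1.15-fold (1.13 to 1.18), and in the wild type the same pair, 1.20-fold (1.17 to 1.24). The distance from the highest to the lowest gene was 12.2-fold in the wild type and 19.99-fold in the knockout. The lower end set this difference: so was 1.28-fold above ham-5 in the wild type (1.20 to 1.37) and 2.71-fold above it in the knockout (2.57 to 2.87).

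This order rests on the gene model lengths behind RPKM. For mek-2 that length, 3081 bp, exceeds the 2339 bp between the coordinates in the table, and for mak-2 the figures are 2769 and 2620 bp. Such an excess of more than 10 bp occurred in 30 of the 7367 genes counted. RefSeq lists 2 transcripts each for mek-2, mak-2 and ham-5, and 1 each for the other genes. When reads were divided by the coordinate span instead, mek-2 had 47.6 RPKM in the wild type and 45.9 in the knockout, above pp-1 with 41.5 and 40.4. On that basis mak-1 was above os-2 in the wild type (98.5 and 93.7 RPKM) and below it in the knockout (84.6 and 88.8 RPKM). By span the order was thus not the same in both libraries. The length was the same in both libraries for each of the 8 genes, so the folds between libraries, which use no pseudocount, do not depend on it. The log2(RPKM + 1) ratios do, through the level.

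Within each cascade the level per length went up from MAPKKK to MAPKK to MAPK. Of the 9 kinase genes, 5 are among the 8 genes. The others, mik-1, mek-1, os-4 and os-5, come from a list of cascade partners and complete the set. In the cell wall integrity cascade the wild-type levels were 15.6 RPKM for the MAPKKK gene mik-1, 44.9 for the MAPKK gene mek-1 and 112 for mak-1. The knockout levels were 12.4, 40.3 and 96.4 RPKM. mak-1 exceeded mik-1 by 7.18-fold in the wild type (6.86 to 7.51) and by 7.78-fold in the knockout (7.51 to 8.07).

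In the pheromone response cascade mak-2 exceeded nrc-1 by 5.22-fold in the wild type (4.99 to 5.48) and 5.84-fold in the knockout (5.63 to 6.06). The step from nrc-1 to mek-2 was the smallest between tiers, 1.40-fold in the wild type (1.32 to 1.47) and 1.66-fold in the knockout (1.59 to 1.73). Its size depends on the length taken for mek-2, which these intervals leave out. By coordinate span the step was larger, with mek-2 at 47.6 RPKM in the wild type and 45.9 in the knockout, and nrc-1 at 25.3 and 20.5. In the osmotic cascade the MAPKKK gene os-4 had 13.4 RPKM in the wild type and 14.5 in the knockout, and the MAPKK gene os-5 had 36.2 and 43.6. os-2 exceeded os-4 by 8.41-fold in the wild type (7.99 to 8.86) and 7.37-fold in the knockout (7.11 to 7.63). The order of the tiers was thus the same in all 3 cascades and both libraries, while the upper kinases differed in sign: os-5 was 1.21-fold higher in the knockout library (1.16 to 1.26) and os-4 1.08-fold higher (1.02 to 1.14), whereas mik-1 was 1.26-fold lower (1.20 to 1.33) and mek-1 1.12-fold lower (1.07 to 1.16). The sign of os-4 turned with TMM scaling, to -0.06 on the log2 scale, and that of os-5 did not (0.08).

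**Figure D3:**
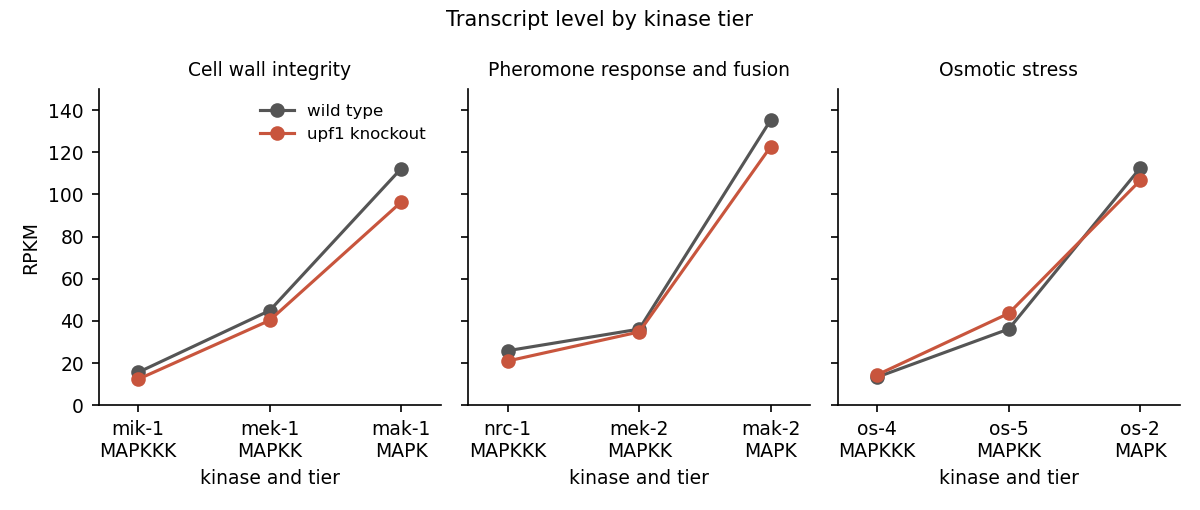
RPKM of the MAPKKK, MAPKK and MAPK genes of the 3 cascades, in the wild-type (grey) and upf1 knockout (red) libraries, 1 point per library. In each panel the level goes up from the left to the right, ending between 96.4 and 135 RPKM for the MAPK genes.

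The other genes of these pathways were taken from 5 lists, which hold 54 genes in all with the 8. Of the 43 genes outside the 8 that reached 5 RPKM in a library, 1 was at least 2-fold higher and 2 at least 2-fold lower, beside 16.5% and 5.52% of all genes. Their median log2 ratio was -0.19, and -0.37 with TMM scaling. The medians of the single lists also moved down with TMM scaling, as the median of all genes did (by 0.17), and each is given below with that value.

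The cell wall integrity list lay close together. None of its 8 genes reached 2-fold, and the median log2 ratio was -0.20 (-0.38 with TMM scaling), with values from -0.31 to 0.16. The protein kinase C gene NCU06544 had 49.9 and 41.7 RPKM, and NCU02558, described as a MADS-box transcription factor, had 10.1 and 9.31. The cell wall sensor gene wsc-1 had 245 RPKM in the wild type and 274 in the knockout. It was the only gene of the list on the higher side, and not so with TMM scaling (-0.02).

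All 8 genes of the pheromone response and fusion cascade lay below a ratio of 1, with a median log2 ratio of -0.21 (-0.39 with TMM scaling) and none at 2-fold. 3 of the 8, namely ham-5 and 2 further genes, were more than 1.5-fold lower, beside 12.7% of all genes. adv-1, whose zinc-cluster transcription factor is needed for fusion and sexual development, had 51.5 RPKM in the wild type from 3868 reads and 28.2 in the knockout from 4281 reads. It was 1.82-fold lower (1.75 to 1.91), and with TMM scaling it passed 2-fold (-1.02 on the log2 scale). The kinase gene described as ste-20 (NCU03894, RefSeq symbol stk-4) had 12.1 and 7.34 RPKM, 1.64-fold lower (1.51 to 1.79). The gene of the MAPKKK regulator described as ste50 (NCU00455) had 30.5 RPKM in the wild type and 30.0 in the knockout, with an interval of the ratio from 0.929 to 1.04.

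In the osmotic stress list, with 8 genes and a median log2 ratio of -0.13 (-0.31 with TMM scaling), no gene reached 2-fold. The response regulator gene rrg-1, which relays the signal of the histidine kinase to OS-4, stood apart from the rest with 28.0 RPKM in the wild type from 3502 reads and 15.8 in the knockout from 3982 reads. It was 1.78-fold lower (1.70 to 1.86). The histidine kinase gene os-1 had 62.0 and 54.4 RPKM, the phosphotransfer gene hpt-1, which overlaps a neighbour, had 274 and 240, and the second response regulator gene rrg-2 had 40.5 and 41.4. The ATF/CREB-type factor gene asl-1 had 42.1 RPKM in the wild type and 37.2 in the knockout.

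Of the 21 other fusion genes, so among them, 2 were at least 2-fold lower and none higher, with a median log2 ratio of -0.24 (-0.43 with TMM scaling), beside 5.52% of all genes lower. prm-1 (NCU09337), whose membrane protein acts in the merger of the plasma membranes, was lowest. It had 16.4 RPKM in the wild type from 1110 reads and 4.13 in the knockout from 565 reads, 3.97-fold lower (3.58 to 4.40). The NADPH oxidase regulator gene nor-1 had 82.5 RPKM in the wild type and 39.3 in the knockout, 2.10-fold lower (2.02 to 2.17), although with a pseudocount of 5 it stayed short of 2-fold. The NADPH oxidase gene nox-2 had 81.6 and 41.6 RPKM, 1.96-fold lower (1.89 to 2.03), and with TMM scaling it passed 2-fold. The related nox-1, which is needed for fusion, had 28.6 and 19.3 RPKM, 1.49-fold lower (1.39 to 1.59). Between nox-2 and nox-1 in ratio lay cdc-24, with 6.86 RPKM in the wild type and 3.82 in the knockout, 1.79-fold lower (1.60 to 2.01).

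The remaining fusion genes lay between prm-1 and NCU06593, described as a MAP kinase activator, which had 17.2 RPKM in the wild type and 24.98 in the knockout, 1.45-fold higher (1.37 to 1.55). After it came so and ham-9, with 27.2 and 31.5 RPKM. The genes of the striatin complex, which fusion requires, included ham-3 with 31.2 and 24.5 RPKM, ham-2 with 23.9 and 20.2, ham-4 with 13.9 and 14.7, and mob-3 with 19.3 in both libraries. ham-7, whose cell surface protein acts upstream of MAK-1, had 165 RPKM in the wild type and 150 in the knockout, the second level of the fusion list after the GTPase gene rac-1 with 249 and 210.

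The list of pheromones, receptors and G proteins held values on both sides. Of its 9 matched genes, 6 reached 5 RPKM in a library, 4 above and 2 below a ratio of 1, with a median log2 ratio of 0.51 (0.33 with TMM scaling). The G protein alpha gene gna-2 was the 1 gene of the 6 at least 2-fold higher, beside 16.5% of all genes, with 14.7 RPKM in the wild type from 1230 reads and 41.7 in the knockout from 7047 reads, 2.84-fold higher (2.67 to 3.02). gna-1 had 75.7 and 124 RPKM, and the beta subunit gene gnb-1 had 58.0 and 85.8. The third alpha gene, gna-3, had 29.7 and 25.9 RPKM, and ric8, whose product activates G alpha proteins, had 18.8 and 14.0. The pheromone and receptor genes stood below 5 RPKM in both libraries. The receptor gene pre-1 had 126 reads (1.35 RPKM) in the wild type and 508 reads (2.69 RPKM) in the knockout, pre-2 had 44 and 118 reads, and the pheromone gene ccg-4 had 16 and 68 reads.

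**Figure D4:**
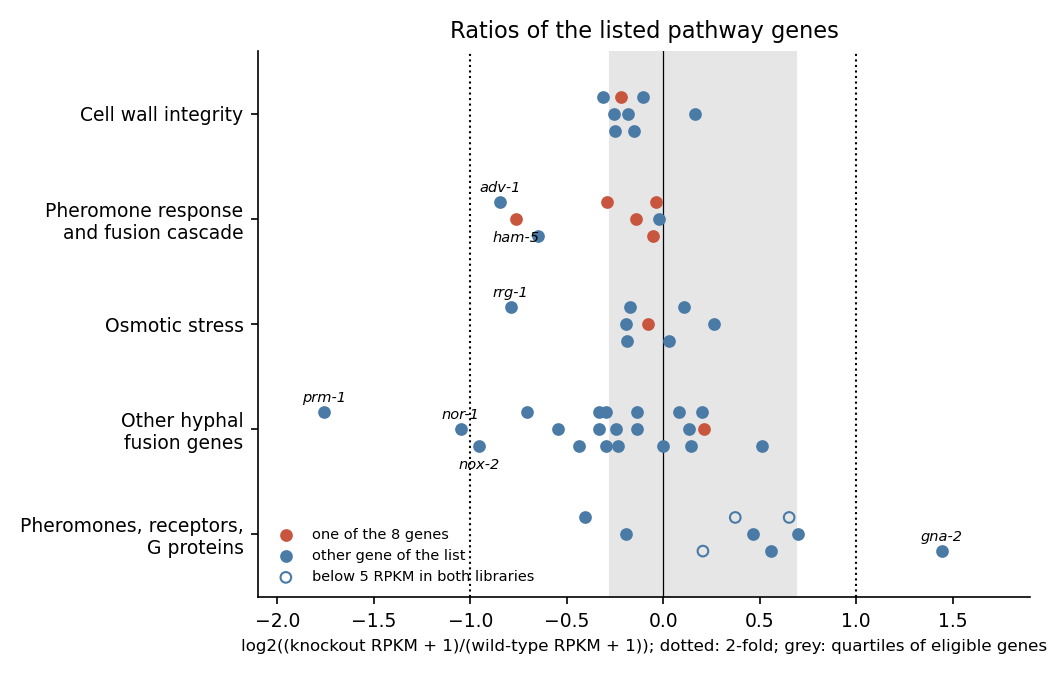
Log2((knockout RPKM + 1)/(wild-type RPKM + 1)) of each gene in the 5 lists, with the 8 genes in red, other genes in blue and genes below 5 RPKM in both libraries as open circles. The grey band spans the quartiles of all 7367 genes counted and dotted lines mark 2-fold. prm-1 and nor-1 lie beyond 2-fold on the left and gna-2 on the right.

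The gene models of the 8 are long. The lengths behind RPKM run from 2129 bp (os-2) to 5154 bp (ham-5), so all 8 fall in the longest 3 of 8 bins of equal size. In these bins the median log2 ratio of all genes was 0.05, 0.00 and -0.10, from the shorter to the longer, against 0.56 in the bin of the shortest genes. With the median of its bin subtracted, the log2 ratio of ham-5 was -0.66 in place of -0.76, lower than in all but 8.25% of the genes of its bin. That of so was 0.32 in place of 0.21, above 75.4% of the genes of the same bin. The median of the 8 was -0.13 after this subtraction, against 0 for all genes.

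**Figure D5:**
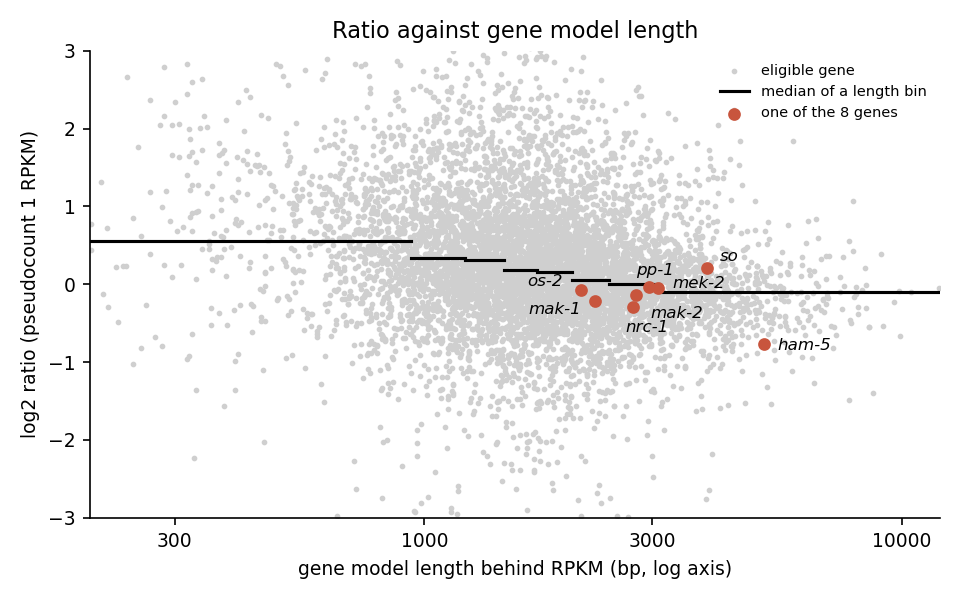
Log2 ratio (pseudocount of 1 RPKM) against the gene model length behind RPKM, on a log axis, for the 7367 genes counted (grey, 106 of them outside the axes) and the 8 genes (red). Black lines are the medians of 8 bins of length, which descend from 0.56 to -0.10. ham-5 lies below the line of its bin and so above it.

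In position the 8 genes are spread over 6 supercontigs, 6 on the minus strand and 2 on the plus strand. By these coordinates mek-2 alone overlaps another gene of the table. For mek-2 and mak-2 the length behind RPKM exceeds the coordinate span, so the overlap of the models that were counted is not known. The downstream neighbours of mak-1 and mak-2 are convergent and lie 470 and 356 bp away.

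For each of the 8 genes the nearest of 1016 genes with a RefSeq symbol was found by the distance between log2(RPKM + 1) values in the 2 libraries. For os-2 this was pph-3, a protein phosphatase gene with 112 RPKM in the wild type and 107 in the knockout, at a distance of 0.0048. For ham-5 it was dcl-1, a dicer-like gene of RNA silencing with 10.8 and 6.36 RPKM, at 0.058. For so it was gle-1 at 0.043, for nrc-1 stk-34 at 0.055, for mak-1 the acetyl-coenzyme A synthetase gene acu-5 at 0.057, for pp-1 cys-9 at 0.063, for mek-2 spe-2 at 0.063 and for mak-2 thr-5 at 0.099. With 2 libraries such nearness says only that level and ratio are alike.

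The table also describes 2 further genes, outside the lists, as MAP kinase or its organizer, and these were looked up after their values were seen. NCU01389, described as MAP kinase organizer 1, had 15.6 RPKM in the wild type and 44.1 in the knockout, 2.83-fold higher (2.61 to 3.07). NCU04597, described as the MAP kinase MAF1, had 30.6 and 28.2 RPKM.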

How the data were processed

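RNA sequencing of 1 wild-type and 1 upf1 knockout sample was used. The authors deposited raw read counts and RPKM values per gene in 1 table, per the file headers, and its columns were assigned by the initials of the sample titles. The submitters' processing notes name Bowtie 0.12.2; build, annotation, counting tool and strand use were not given in the sources used here. Library totals were recovered from counts, RPKM and gene spans, and 94.4% (knockout) and 95.4% (wild type) of them are in the table. A count of 0 allows 3 reads, or 0.0503 and 0.102 RPKM for a gene of 1 kb.

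Ratios were computed as log2((knockout RPKM + 1)/(wild-type RPKM + 1)), a scale that shrinks the differences of genes with low values. Genes with at least 5 RPKM in a library were counted. Printed folds are ratios of reads over library totals, with exact Clopper-Pearson intervals. Intervals of a ratio of 2 genes in 1 library also use their lengths. Without molecular identifiers reads are not independent molecules. With 1 library per strain there is no test. The functions were checked on simulated counts. Tools were scipy 1.17.1, edgeR 4.0.16 (TMM) and DESeq2 1.42.0 (size factors).

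The members and lists were chosen with earlier results of these data known. The rule for named genes took all 8 genes, per list the 3 largest and 3 smallest ratios and the cascade partners, and the nearest gene to each of the 8; 1 gene that it took is not reported here, and other list genes, and NCU01389, NCU04597 and NCU04613, were added after their values were seen. Symbols came from RefSeq (NC12), used for names only. 3 of 57 list entries were not used: ppg-1 and csp-6, whose identifiers the table describes as other proteins, and mfa-1. The symbol prm-1 belongs to another gene in RefSeq, so that gene was taken by identifier and description. No sequences are printed.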

Additional observations from a re-analysis of the deposited data

How the results depend on the processing

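With a pseudocount in the ratio, none of the 8 genes reached 2-fold under any single alternative of scaling, pseudocount, filter or length. ham-5 came closest, at -0.92 with TMM scaling and -0.95 with DESeq2 size factors. Both values keep the pseudocount of 1 RPKM, which shrinks the difference of a gene with low values. Without a pseudocount, ham-5 passed 2-fold lower with both of these scalings. With TMM it had 1887 reads of an effective 60301099 in the knockout and 1692 of an effective 26322206 in the wild type. The DESeq2 size factors were 1.53 for the knockout and 0.655 for the wild type. At a threshold of 1.5-fold, 1 gene (ham-5) was lower. The 8 ratios kept their sign under every alternative that left the gene in. For so the kept sign means little, as its log2 ratio was 0.04 with TMM scaling and 0.02 with DESeq2 size factors. The filter at 20 RPKM removed ham-5 and so. The median of the 8 was -0.31 with DESeq2 size factors, -0.29 with TMM scaling and -0.26 when the median gene was set to 0, which shift all genes down; it stayed near the reported value without mak-1 or without mek-2, both chosen after seeing the data. Of all genes, 774 were higher with the filter at 20 RPKM, which tests fewer genes, in place of 1214. TMM scaling gave 954 higher and 574 lower, in place of 1214 and 407. At 1.5-fold 2120 were higher and 937 lower, and at 4-fold 285 and 99. Of the 43 other listed genes, 1 was lower with a pseudocount of 5 or the filter at 20 RPKM, and 4 with TMM scaling or DESeq2 size factors. At 1.5-fold 2 were higher and 7 lower, and at 4-fold 0 and 0. Replicates could not be left out with 1 library per strain. No paired analysis was possible because each strain has 1 library. Depth limits the pheromone gene ccg-4 and the receptor genes most, with as few as 16 reads.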
